A study of Mus musculus with 4 samples.

Results

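Wide accessible regions at a single gene were selected from ATAC-seq peak lists of mouse DN3 thymocytes. A region was formed by merging overlapping peaks of all lists on chromosomes 1 to 19, X and Y. The highest fold enrichment among its peaks fixed its summit. A region was kept when it had a peak in all 4 libraries, when its summit lay within 1000 bp of the start or end of exactly 1 protein-coding gene, and when it spanned 1000 bp or more. Merging gave 36224 regions. Peaks of every library were present in 16761 of them, 6671 of which lay at the end of 1 gene, and 1016 of those were wide (15.2%). The 1016 wide regions lay at 1015 genes. The other 5655 shared regions at 1 gene end are called narrow here, and a further 1367 shared regions lay at the ends of more than 1 gene.

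The cells came from the thymus of wild-type mice, and DN3 cells are CD4/CD8 double-negative T cell precursors that rearrange the T cell receptor beta gene. After flow sorting of DN3 cells, magnetic beads and an antibody against the adhesion molecule EpCAM gave an EpCAM-positive fraction, and the cells without label formed the EpCAM-negative fraction. Each fraction had 2 libraries, with no age, sex or number of mice given, and the labels do not state whether separate animals were used. The spread between libraries may therefore be technical. The EpCAM-positive lists held 26029 and 29030 peaks and the EpCAM-negative lists 24598 and 25924. Of 20 genes of the DN3 stage, 9 had a region called in all 4 libraries at an end. Notch3, Gata3 and Dntt had no peak at either end in any library, and Rag1 had one in both libraries of the EpCAM-negative fraction alone. Epcam had one in both libraries of the EpCAM-positive fraction alone. Of 18 thymic epithelial genes, a list that includes Epcam, 5 had a peak at an end in all 4 libraries.

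Chromatin at active promoters is kept free of nucleosomes around the transcription start, where transcription factors and RNA polymerase assemble. Most promoters of genes used in all cells lie in CpG islands, stretches rich in CG dinucleotides that bind SP and KLF factors at GC boxes and tend to be accessible. Promoters with several start sites or with a nearby enhancer can be open over a longer stretch than a single nucleosome-free gap. In DN3 thymocytes, E proteins, RUNX factors with their partner CBF beta and the Notch pathway are known to control T lineage genes. ATAC-seq marks such places because a transposase inserts adapters into accessible DNA. In bulk libraries, a region open in a few cells and one open weakly in many cells cannot be told apart.

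The promoters of 7 wide regions show how different the sequence under such a region can be. Erbin and Ppp4r3b had the widest regions with an entry in the promoter table, Tom1 and Cblb had among the highest fold enrichment, and Cbfb, Tcf12 and Gfi1 encode transcription factors or partners used in the T lineage. Each RefSeq sequence (GRCm38.p6) runs from 250 bases before to 50 after the gene's start, 5′ to 3′ on the gene's strand. Capitals mark the GC box, GGGCGG on either strand.
Erbin (chr13:103920537-103920836, minus strand): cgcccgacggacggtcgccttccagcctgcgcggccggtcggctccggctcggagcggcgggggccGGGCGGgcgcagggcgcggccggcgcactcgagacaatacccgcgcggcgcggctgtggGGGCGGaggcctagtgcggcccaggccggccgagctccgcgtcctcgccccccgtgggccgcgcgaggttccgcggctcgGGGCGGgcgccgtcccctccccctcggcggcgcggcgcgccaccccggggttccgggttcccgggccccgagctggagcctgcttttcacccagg
Ppp4r3b (chr11:29172726-29173025, plus strand): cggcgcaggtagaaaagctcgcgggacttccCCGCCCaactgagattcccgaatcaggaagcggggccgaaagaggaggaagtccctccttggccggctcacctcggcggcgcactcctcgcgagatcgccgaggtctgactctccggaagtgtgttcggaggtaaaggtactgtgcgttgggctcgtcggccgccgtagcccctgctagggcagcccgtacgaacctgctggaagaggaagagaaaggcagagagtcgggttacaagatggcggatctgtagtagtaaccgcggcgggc
Tom1 (chr8:75033436-75033735, plus strand): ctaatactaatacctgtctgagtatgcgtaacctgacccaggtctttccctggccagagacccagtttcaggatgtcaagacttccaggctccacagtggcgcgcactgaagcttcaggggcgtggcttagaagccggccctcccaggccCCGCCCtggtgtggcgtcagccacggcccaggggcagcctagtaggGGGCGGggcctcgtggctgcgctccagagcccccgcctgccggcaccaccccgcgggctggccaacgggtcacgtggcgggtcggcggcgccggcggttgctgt
Cblb (chr16:52031299-52031598, plus strand): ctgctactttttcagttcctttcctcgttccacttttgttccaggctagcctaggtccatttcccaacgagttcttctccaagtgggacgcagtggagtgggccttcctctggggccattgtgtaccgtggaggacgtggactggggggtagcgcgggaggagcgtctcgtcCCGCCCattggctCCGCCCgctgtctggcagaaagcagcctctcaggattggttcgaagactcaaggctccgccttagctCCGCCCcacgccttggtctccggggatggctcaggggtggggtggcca
Cbfb (chr8:105170424-105170723, plus strand): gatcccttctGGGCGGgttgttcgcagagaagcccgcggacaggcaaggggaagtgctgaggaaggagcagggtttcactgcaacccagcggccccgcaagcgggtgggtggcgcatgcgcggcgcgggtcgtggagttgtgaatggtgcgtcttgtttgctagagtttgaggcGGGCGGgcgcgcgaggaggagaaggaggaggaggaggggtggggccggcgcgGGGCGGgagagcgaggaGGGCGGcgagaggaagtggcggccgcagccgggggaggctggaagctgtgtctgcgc
Tcf12 (chr9:72111770-72112069, minus strand): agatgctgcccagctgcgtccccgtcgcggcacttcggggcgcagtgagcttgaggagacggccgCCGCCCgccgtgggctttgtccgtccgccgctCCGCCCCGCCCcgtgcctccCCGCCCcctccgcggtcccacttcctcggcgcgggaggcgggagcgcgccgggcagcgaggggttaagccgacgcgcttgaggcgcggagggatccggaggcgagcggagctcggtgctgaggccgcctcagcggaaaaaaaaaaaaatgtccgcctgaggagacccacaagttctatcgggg
Gfi1 (chr5:107725756-107726055, minus strand): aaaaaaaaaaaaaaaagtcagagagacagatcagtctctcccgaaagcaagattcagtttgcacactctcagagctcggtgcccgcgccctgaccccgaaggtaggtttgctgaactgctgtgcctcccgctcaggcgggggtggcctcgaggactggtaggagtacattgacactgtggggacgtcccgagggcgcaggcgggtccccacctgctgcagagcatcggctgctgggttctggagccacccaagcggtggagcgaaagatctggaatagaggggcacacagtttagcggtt

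Erbin had 53 CG dinucleotides and 3 GC boxes in 300 bases at a GC content of 82%. Its CpG ratio, the count of CG over the count that the C and G content would give, was 1.05. Ppp4r3b had 30 CG dinucleotides, 1 GC box and a CpG ratio of 1.02. In this window the letters of the ETS, YY1 and ZBTB33 motifs were found too. Cbfb and Tcf12 had 4 GC boxes each and CpG ratios of 0.987 and 1.06. Tom1 and Cblb were poorer in CG, with ratios of 0.663 and 0.603, and had 2 and 3 GC boxes. Gfi1 had 16 CG dinucleotides, a ratio of 0.641 and no GC box in the window. The window of Tom1 lay in its wide region for 195 of 300 bases, and the windows of the other 6 genes lay in theirs completely.

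Widths of the members gathered just above the 1000 bp limit. The median width was 1118 bp, with quartiles at 1049.75 and 1224.5 bp, 443 regions under 1100 bp and 39 of 1500 bp or more. At the limit, Epb41, Lgr4 and Map2k4 had regions of 1000 bp, and Acvr1c, Amz2 and Laptm4a had shared regions of 999 bp that were not included. The part called in all 4 libraries was shorter, with a median of 738.5 bp, and reached 1000 bp in 118 regions (11.6%). In 80 regions every library had a single peak of at least 1000 bp, in 722 at least 1 library had one, and in the remaining 294 the width arose only where peaks of different libraries or neighbouring peaks were joined. In narrow regions, the median width was 717 bp and the part called in all 4 libraries 438 bp.

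The widest region lay at Kmt2e, which encodes a chromatin protein of the trithorax-related family, and spanned 2216 bp (chr5:23432533-23434748). Its called width was 2206 and 2052 bp in EpCAM-positive libraries and 1850 and 2045 bp in EpCAM-negative ones. The summit pileup, the number of reads or fragments over the summit as solved from the deposited values, was 194 and 184 against 145 and 137. The local background against which the caller set it was 26.0 and 23.8 against 16.8 and 16.0. The fold enrichment, their ratio with 1 added to both terms, was 7.23 and 7.47 against 8.21 and 8.09. For Kmt2e, pileup and background were thus higher in both EpCAM-positive libraries and the fold was lower, with no overlap between fractions. Rev3l, the catalytic subunit of the translesion polymerase zeta, had the next widest region at 1899 bp (chr10:39731192-39733090), made of 3, 2, 3 and 5 peaks. Its pileup was 63 and 71 against 50 and 48. Erbin, a scaffold protein that binds the receptor ERBB2, followed with 1802 bp (chr13:103920005-103921806) and pileups of 35 and 48 against 43 and 27, where the fractions overlapped. Its summit lay at -865 bp, upstream of the start printed above. Slc16a5 (1770 bp), a monocarboxylate transporter gene, Lonrf1 (1745 bp), Ppp4r3b (1743 bp), a regulatory subunit of protein phosphatase 4, Setd7 (1696 bp), a lysine methyltransferase, and Dipk2a (1691 bp) completed the 8 widest. Setd7 was 1 unbroken peak in every library, of 1696, 1522, 1575 and 1483 bp.

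Wide regions differed from narrow ones in pileup and in background rather than in their ratio. In the order EpCAM-positive 1 and 2, EpCAM-negative 1 and 2, the median pileup of wide regions was 63, 63, 50 and 47, against 37, 37, 29 and 27.5 in narrow regions. This is 1.70 to 1.72 times higher in each library. The median local background was 4.97, 4.57, 3.49 and 3.18 against 2.45, 2.33, 1.75 and 1.61, which is 1.96 to 2.03 times higher. The median fold was 10.8, 11.3, 11.4 and 11.6 against 10.8, 11.3, 10.9 and 10.9, a ratio of 1.00 to 1.07. The fold, pileup and width come from the same peaks that chose the regions, so these values are a description and were not tested. Pileup and background were both solved from the values of a peak, and the caller settings are not stated. Whether the background includes reads of the region itself is therefore not known, and it cannot be taken as independent of pileup and width.

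**Figure D1:**
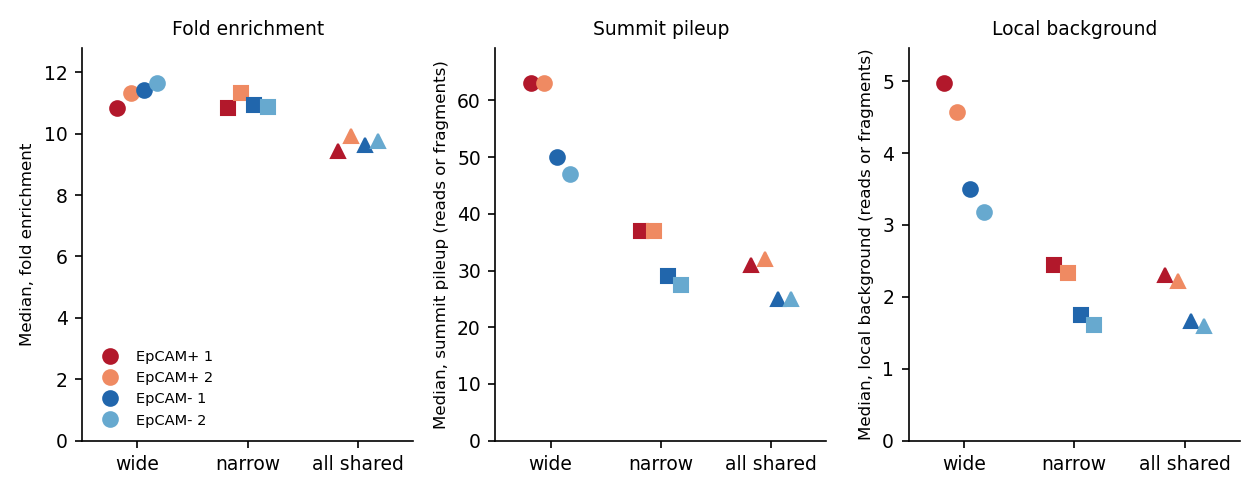
Median fold enrichment, summit pileup and local background (vertical axes, each from 0) of wide shared regions at 1 gene end, narrow ones and all shared regions; each point is 1 library, red for EpCAM+ and blue for EpCAM-. Pileup and background of the wide regions lie above those of the narrow ones in each library, while the fold medians lie between 10.8 and 11.6 in both sets.

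The 8 wide regions with the highest fold, by mean percentile among all shared regions, were single peaks in every library. Atf7, a transcription factor of the ATF family, had a fold of 22.3 and 24.3 in EpCAM-positive against 25.4 and 23.8 in EpCAM-negative libraries (chr15:102624878-102625896, mean percentile 99.5). Aco1, the cytosolic aconitase that also regulates iron-responsive messages, had 22.1, 23.8, 25.0 and 24.3. Cblb, a ubiquitin ligase that restrains T cell receptor signalling, had 21.8, 22.9, 23.8 and 25.6 (chr16:52031158-52032227). These 3 genes had values within a narrow range in all libraries. Dctn4, a dynactin subunit, Tom1, an endosomal sorting protein, Osbpl9, a lipid-binding protein, and Rps19, a protein of the small ribosomal subunit, had mean percentiles from 99.3 down to 97.4. None of these 8 was among the 8 widest, and their widths were 1002 to 1124 bp.

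Most wide regions had more than 1 summit cluster when the summits of the 4 libraries were pooled. Summits of all lists within 100 bp of each other were counted as 1 cluster. Of the wide regions, 682 (67.1%) had 2 or more clusters and 318 (31.3%) had 3 or more, against 37.5% and 6.42% of narrow regions. Longer regions have more room for summits, and the count was not adjusted for width. The count also rises where single peaks of different libraries have their summits apart. A single peak in every library was found in 481 wide regions, but a single cluster in only 334. Mcm5, for example, had 1 peak in every library and 3 clusters. Tcf12, Cab39 and Naa15 had the most, with 6 clusters each. Tcf12 encodes the E protein HEB, which acts at the beta-selection checkpoint. Its region (chr9:72110798-72112211, 1414 bp) had 1, 3, 3 and 2 peaks and pileups of 36, 28, 29 and 16. Cab39, a partner of the kinase LKB1, had pileups of 45, 41, 22 and 28, and Naa15, a subunit of an N-terminal acetyltransferase, 36, 27, 20 and 17. For Cab39 and Naa15 both EpCAM-positive libraries lay above both EpCAM-negative ones, as the medians of all shared regions did (31 and 32 against 25 and 25). For Tcf12 the second EpCAM-positive library lay below the first EpCAM-negative one.

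Peak number differed between libraries. A single peak in every library was found in 481 wide regions (47.3%), and 34 had 2 or more peaks in every library. Where a library had more than 1 peak, the median gap between neighbours was 41 and 40 bp for EpCAM-positive and 45 and 65 bp for EpCAM-negative libraries. In 93 wide regions both EpCAM-positive libraries, but no EpCAM-negative one, had a single peak of 1000 bp or more, and the reverse held in 2. A single such peak is enough to pass the width limit, so these counts are tied to the choice of regions. The same split was not counted over all shared regions, so it cannot be called particular to the wide ones. With each library taken alone, such a peak was present in 6.35% and 4.12% of all shared regions in the EpCAM-positive libraries. In the EpCAM-negative libraries it was present in 2.47% and 1.63%. The split of 93 and 2 stands beside the higher background of the EpCAM-positive libraries. The lowest background solved from each list was 0.388 and 0.383 against 0.290 and 0.286. The part of depth in this split was not tested.

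The called width of wide regions was larger in the EpCAM-positive libraries, and so was that of all shared regions. EpCAM-positive libraries had medians of 1041.5 and 996.5 bp and EpCAM-negative libraries 914 and 855 bp, without overlap. The means were 1019 ± 31.8 and 884.5 ± 41.7 bp (SD, n = 2 per fraction) and their ratio was 1.15. The regions were chosen by their merged width, to which the EpCAM-positive calls contributed more, so this difference is a description and carries no test. In all shared regions the medians were 596, 567, 515 and 494 bp, with the same ratio of 1.15, and in narrow regions the ratio was 1.16. The ratio of these library medians was thus alike in all 3 sets. When the ratio was taken within each region, its median was 1.15 in wide, 1.12 in narrow and 1.12 in all shared regions.

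Nearly all wide regions whose gene's strand was known lay at the start of the gene. Strand was given for 816 of the 1016, and 801 of these (98.2%, exact 95% interval 97.0 to 99.0) lay at the start, 12 at the end and 3 within reach of both. In narrow regions 95.4% (94.8 to 96.0) lay at the start. These and the following intervals cover counting error only. For the other 200 wide regions, among them those of Kmt2e and Rev3l, the strand is not in the tables used here. Jund, Junb and Cd247 show the limits of this assignment. The region of Junb lay at the end of the gene (chr8:84975523-84976898). The summit of Jund lay inside the gene, 909 bp downstream of its start in the promoter table. The region of Cd247, the CD3 zeta chain, lay at the start of the annotated gene with its summit at -7765 bp from the start in the promoter table.

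Around the start, wide regions reached farther on both sides. A promoter entry within 1000 bp of the summit was found for 783 wide and 4295 narrow regions. Wide regions extended a median of 496 bp upstream and 633 bp downstream of the start, against 324 and 395 bp in narrow regions. Both sets were thus longer on the downstream side, in 62.7% of wide and 61.2% of narrow regions. The summit of wide regions lay more often upstream. Its median position was -20 bp from the start in wide regions and 58 bp downstream of it in narrow ones, and it lay upstream in 51.5% (47.9 to 55.0) against 37.8% (36.4 to 39.3). Within 250 bp of the start lay 78.0% of wide and 86.0% of narrow summits. More than 1 annotated start fell in 10.6% (8.53 to 13.0) of wide and 7.22% (6.46 to 8.03) of narrow regions.

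The extent around the start differed between libraries on the downstream side. In wide regions, at least 50% had a called peak from -450 to 575 bp in the first and from -425 to 500 bp in the second EpCAM-positive library. In the EpCAM-negative libraries this stretch ran from -375 to 425 bp and from -375 to 350 bp. The upstream edges were therefore closer to each other than the downstream edges. In narrow regions the 4 stretches ran from between -275 and -225 bp to between 250 and 325 bp.

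**Figure D2:**
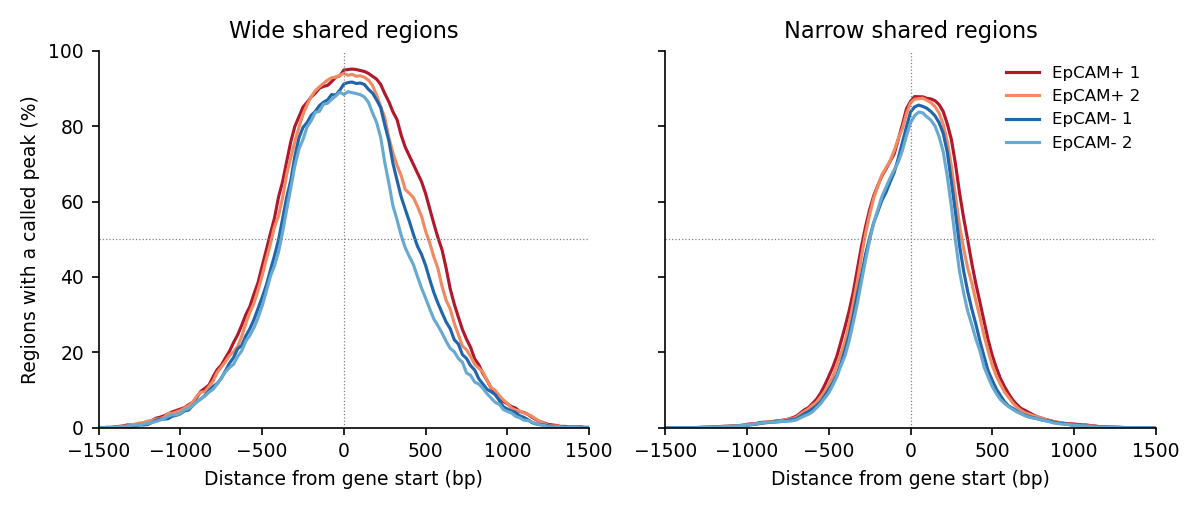
Share of regions with a called peak (vertical axis, percent) by distance from the gene start (horizontal axis, bp, negative upstream), for 783 wide and 4295 narrow regions; each line is 1 library and the dotted lines mark 50% and the start. For the wide regions, 50% is last reached at 575 and 500 bp in EpCAM+ and at 425 and 350 bp downstream in EpCAM- libraries.

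Promoters under wide regions were richer in CG than those under narrow regions and far richer than promoters in general. The median CpG ratio in the 300-base window was 0.863 (interval 0.849 to 0.876) in wide regions, 0.794 (0.787 to 0.802) in narrow regions and 0.567 (0.557 to 0.577) over all 21262 promoters in the table. A ratio of 0.6 or more, a common threshold for CpG islands, was reached by 90.4% of wide, 81.0% of narrow and 47.7% of all promoters. The GC content was 66%, 61.3% and 56.3%. The same order was seen when wide and narrow regions of like pileup were compared, a comparison chosen after seeing the data. At a mean pileup of 20 to 40 the ratio was 0.865 against 0.779, at 40 to 60 it was 0.869 against 0.824, and at 60 to 100 it was 0.863 against 0.843. These bands held 186, 202 and 187 of the 783 wide regions and 1574, 823 and 635 of the 4295 narrow ones. Regions below 20 or from 100 up were not compared.

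The letters of the GC box followed the same order. At least 1 GC box was present in 80.8% (78.0 to 83.5) of wide, 70.3% (68.9 to 71.7) of narrow and 46.2% of all promoters. At like pileup the wide and narrow shares were closer, and their intervals overlapped in each band. They were 76.3% against 68.9% at 20 to 40, 81.2% against 75.6% at 40 to 60 and 81.3% against 76.2% at 60 to 100. The ETS motif CCGGAAG ran the other way between wide and narrow regions, at 16.5% (13.9 to 19.3) and 21.0% (19.8 to 22.3), with 11.6% in all promoters. This difference was seen at a pileup of 20 to 40, with 12.4% against 22.2%. It was nearly absent at 40 to 60 (21.3% against 22.5%) and at 60 to 100 (20.9% against 20.9%). Regions with a mean pileup below 20 or from 100 up were not compared. The bands therefore do not show where the whole difference lies. The CCAAT box was found in 40.7%, 41.0% and 38.2%, and the TATA box TATAAA in 6.51%, 6.19% and 12.6%. Motifs of factors used in the T lineage did not all go the same way. The ETS motif, which belongs to them too, had higher shares in wide and in narrow regions than in all promoters. Lower shares in both were found for the RUNX letters ACCACA (10.6%, 12.3% and 15.0%) and the GATA letters AGATAA (3.19%, 5.17% and 9.65%). The same held for the TCF1 and LEF1 letters CTTTGAT (1.79%, 2.14% and 3.22%) and the E-box CACCTG (15.6%, 17.3% and 19.7%). The RBPJ letters GTGGGAA, used by the Notch pathway, were found in 5.75%, 5.63% and 6.07%. The other 6 motifs searched were the NRF1 site GCGCATGC, the CRE TGACGTCA, the E-box CACGTG, the YY1 site AAGATGGC, the ZNF143 site ACTACAA and the ZBTB33 site TCTCGCGA, with shares from 2.55% to 11.4% in wide regions, and the AP-1 site TGACTCA was in 2.04%. Both strands were searched, matches of different motifs may overlap, and a match is a stretch of letters and not a bound site. Base composition differed between the sets, and the shares were not adjusted for it.

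**Figure D3:**
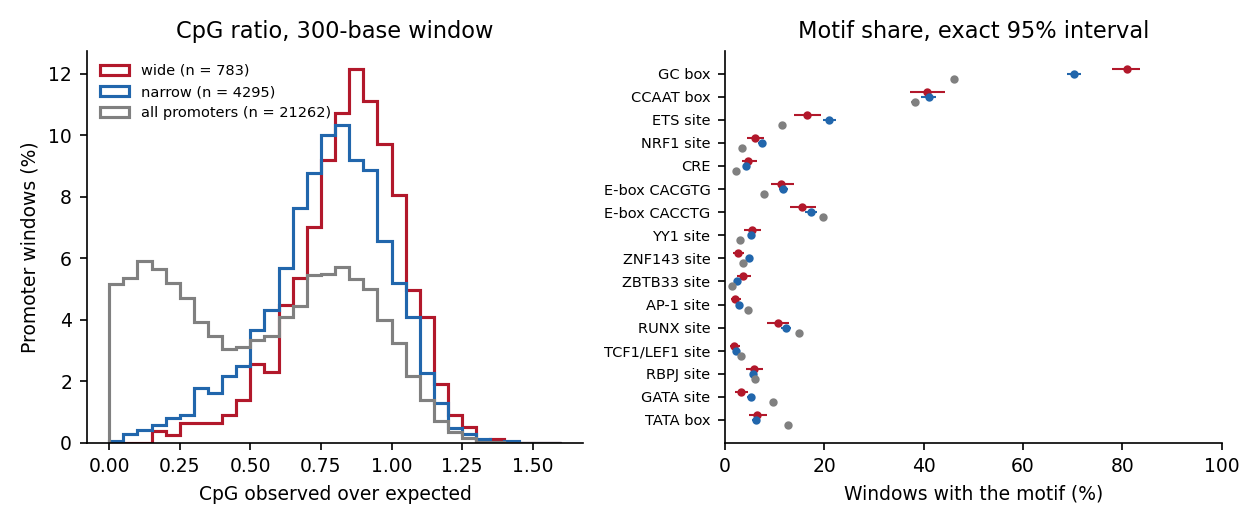
Left, distribution of the CpG ratio (horizontal axis) over promoter windows (vertical axis, percent) of wide regions, narrow regions and all promoters. Right, share of windows with each motif (horizontal axis, percent) with exact 95% intervals, in red for wide, blue for narrow and grey for all promoters; the GC box separates the sets most, at 80.8%, 70.3% and 46.2%.

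The share of genes with a wide region varied between the gene lists. Over all 6502 genes with a shared region at 1 gene end, 1015 had a wide one (15.6%). Of 33 such genes in the immediate early and stress list, 14 did (42.4%), of 19 T lineage transcription factors 7 did, and of 16 genes of cytokine receptors and the STAT5 axis 5 did. T cell receptor signalling had 7 of 24, splicing factors 8 of 30, the NF-kappaB pathway 4 of 15 and chromatin regulators 11 of 45. Below or near the overall share were cytosolic ribosomal proteins with 8 of 59, cell cycle and replication genes with 4 of 31, the Notch pathway with 2 of 16, mitochondrial ribosomal proteins with 2 of 31 and proteasome subunits with 1 of 22. The DN3 stage list had 1 of 8, genes of later T cell stages 1 of 10 and genes of earlier precursors 1 of 4. Lists of B cell, myeloid, thymic epithelial, innate lymphoid, erythroid, stromal and neuronal genes had no wide region among the 2 to 4 genes each with a shared region at 1 gene end. These lists are small and no test was made of any of them.

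**Figure D4:**
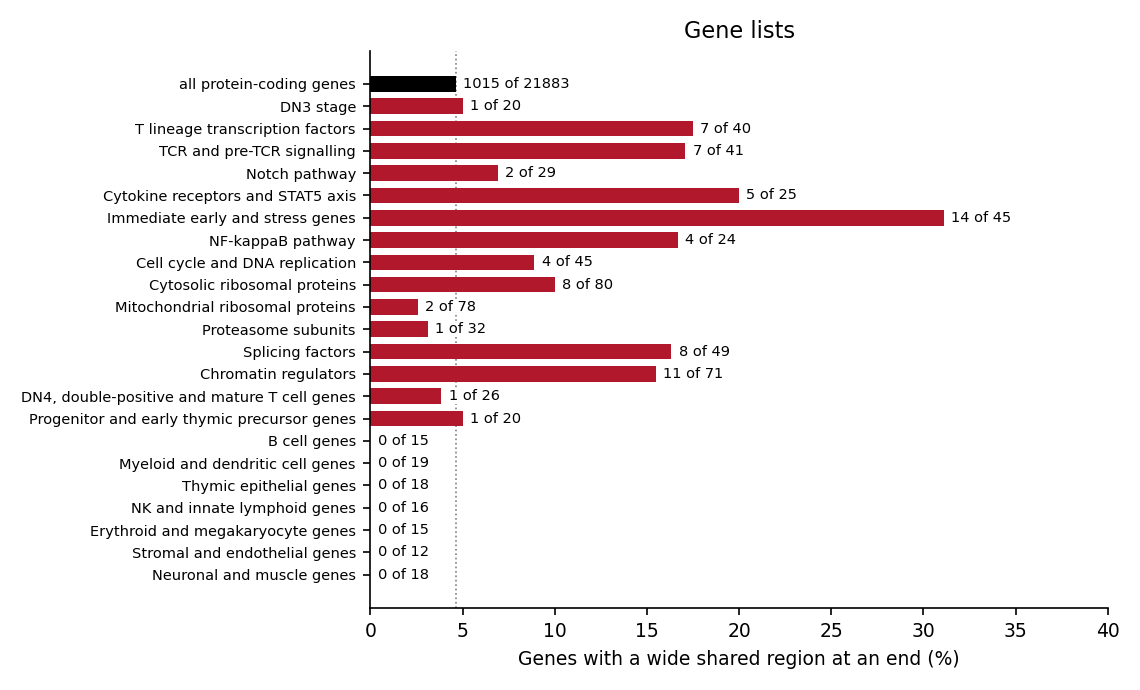
Share of each gene list with a wide shared region at 1 gene end (horizontal axis, percent of all genes in the list, from 0), with the counts beside the bars; the black bar and dotted line give all protein-coding genes (1015 of 21883, 4.64%). The immediate early and stress list has the longest bar, 14 of 45.

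Among T lineage transcription factors, Cbfb, the shared partner of the RUNX proteins, had the widest region (1542 bp, chr8:105170237-105171778). Its pileup was low and close in all libraries at 23, 27, 27 and 29, and its fold was 6.11, 7.45, 8.95 and 10.0. Both EpCAM-negative folds were above both EpCAM-positive ones. Gfi1, a zinc-finger repressor of early thymocytes, had a region of 1266 bp (chr5:107725006-107726271) with pileups of 79, 119, 65 and 71 and folds of 9.14, 13.5, 9.33 and 11.3, where the fractions overlapped. Egr1, which is induced by pre-T cell receptor signals, had 1405 bp with pileups of 130, 152, 99 and 133. Tcf3, the gene of the E2A proteins, had 1014 bp, pileups of 153, 160, 119 and 90 and folds of 17.7, 18.3, 18.5 and 17.5. Tcf3 had the highest mean fold percentile of this list, 94.4. Patz1, a BTB zinc-finger protein, Ets2, an ETS factor, and Tcf12 completed the list, and Patz1 had folds of 6.46, 6.79, 6.72 and 6.73.

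Of the DN3 stage list, only Cd247 had a wide region (1023 bp, chr1:165780053-165781075). It had 3 summit clusters, pileups of 42, 53, 38 and 37 and folds of 9.06, 11.1, 11.8 and 11.1. Shared regions under the limit lay at an end of Cd3d (972 bp), Notch1 (853 bp), Bcl11b (818 bp), Cd3g (778 bp), Cd3e (753 bp), Hes1 (700 bp) and Il2ra (651 bp). Cd3d, a chain of the CD3 complex, was therefore close to the limit. In the T cell receptor signalling list, Nfatc3, a calcium-regulated factor, was the widest at 1228 bp with folds of 11.6, 11.6, 12.6 and 12.2. Fyn, a SRC family kinase, had 1096 bp and folds of 10.9, 11.6, 10.8 and 9.99, and Rasgrp1, an activator of RAS, had 1087 bp and folds of 12.0, 11.5, 11.6 and 11.2. Malt1 and Bcl10, partners that link antigen receptors to NF-kappaB, also belonged to the wide regions. Kit, a receptor tyrosine kinase of earlier precursors, had 1350 bp of which 256 bp were called in all 4 libraries. The called width at Kit was 951, 936, 256 and 719 bp and the pileup 34, 27, 20 and 25. From the Notch list came Maml1, a co-activator of the Notch complex (1108 bp), and Adam10, a protease that cleaves Notch receptors (1060 bp).

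Several immediate early genes had high pileup on a high background. Jun, a subunit of AP-1, had a region of 1549 bp (chr4:95051882-95053430) that was 1 peak in every library. The EpCAM-positive pileups were 154 and 184 and the EpCAM-negative ones 110 and 143. The background was 24.0 and 22.7 against 12.1 and 11.0, a ratio of 2.02. The fold was 6.19 and 7.82 against 8.48 and 12.0. For Jun, pileup and background were higher in both EpCAM-positive libraries while the fold was higher in both EpCAM-negative ones. Jund, another AP-1 subunit, had pileups of 239, 215, 189 and 145, backgrounds of 24.2, 21.1, 12.5 and 9.65 and folds of 9.52, 9.79, 14.1 and 13.7. At Junb the backgrounds were 25.0, 24.2, 15.5 and 15.2. Over the 14 genes of this list the median ratio of background between the fractions was 1.59, against 1.41 over all wide regions and 1.38 over all shared regions. Their median ratio of pileup was 1.35 against 1.28 and 1.24. The remaining genes of the list were Hsp90ab1 and Dnajb1, which are chaperone genes, Egr1, Ier5, Dusp1, Dusp5, Zfp36l2, Myc, Gadd45a, Gadd45b and Klf2.

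**Figure D5:**
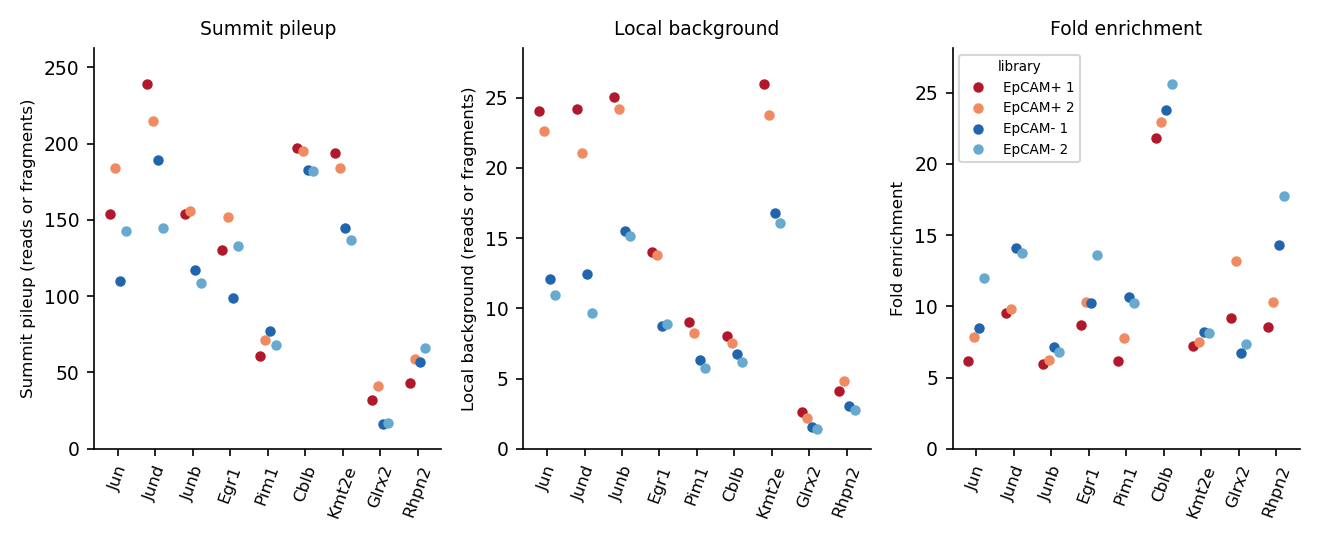
Summit pileup, local background and fold enrichment (vertical axes, from 0) of 9 wide regions by library, red for EpCAM+ and blue for EpCAM-. At Jun and Jund the EpCAM+ libraries are higher in pileup and background and lower in fold, while Glrx2 is higher in EpCAM+ in all 3 panels.

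Other lists held wide regions at central genes. Tnfaip3, the NF-kappaB inhibitor A20, had 1303 bp with pileups of 122, 124, 71 and 72 and folds of 10.4, 11.2, 11.2 and 11.2, so that its pileup differed between the fractions and its fold did not follow. Relb, an NF-kappaB subunit, had folds of 16.2, 17.5, 17.4 and 17.9. Among chromatin regulators, the acetyltransferase gene Ep300 had 1453 bp, Ezh2, the Polycomb methyltransferase, 1391 bp, and Ctcf, an insulator protein, 1385 bp. Ctcf had pileups of 112, 127, 89 and 101. Among splicing factors, Srsf2 was the widest (1322 bp), followed by Hnrnpa0 (1277 bp), Tra2b (1192 bp) and Srsf1 (1183 bp). Mki67, a marker of cycling cells, had 1268 bp of which 212 bp were called in all 4 libraries, with pileups of 25, 25, 13 and 14. E2f1, Mcm5 and Cdk1 were the other cell cycle genes.

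A comparison of the fractions by fold used ranks, since the fold belongs to each authors' list. Each library's strongest peak in a region was given a percentile among the 16761 shared regions, and a region was counted as higher in a fraction when both its libraries lay at least 10 percentile points above both others. Of the wide regions, 24 (2.36%, 1.52 to 3.49) were higher in EpCAM-positive, against 5.86% of all shared regions. Higher in EpCAM-negative were 45 (4.43%, 3.25 to 5.88), against 6.09%. In narrow regions the shares were 6.15% and 3.41%. No region was tested singly, since an exact permutation test (two-sided) of 2 libraries per fraction cannot go below p = 0.33.

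The direction of this count turned between fold and the other strength measures. Ranked by summit pileup, 33 wide regions (3.25%) were higher in EpCAM-positive and 8 (0.787%) in EpCAM-negative, against 4.09% and 4.76% of all shared regions. By −log10 q the counts were 34 (3.35%) and 16 (1.57%), against 4.98% and 5.56%. With percentiles of fold taken among the wide regions alone, the counts were 50 and 47. Such percentiles have the same mean in every library, so a lean of the whole set cannot show in them. The median ratio of fold, EpCAM-positive to EpCAM-negative, was 0.970 in wide regions and 0.990 in all shared regions. Of the 45 regions higher in EpCAM-negative by fold, 7 were so by pileup and none was higher in EpCAM-positive by pileup. Of the 24 higher in EpCAM-positive by fold, 13 were so by pileup. By called width, none of the 45 was higher in EpCAM-negative and 5 were higher in EpCAM-positive. Of the 24, 1 was higher in EpCAM-positive by called width and 1 in EpCAM-negative. In the 45 regions the median ratio of EpCAM-positive to EpCAM-negative was 0.976 for pileup and 1.33 for background, and in the 24 it was 1.79 and 1.60. Over all wide regions these ratios were 1.28 and 1.41. By pileup, the wide regions had no lean to EpCAM-negative.

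The 6 largest gaps in the EpCAM-positive direction ran from 21.0 down to 15.0 points. Glrx2, a mitochondrial glutaredoxin, had pileups of 32 and 41 against 16 and 17 and folds of 9.19 and 13.2 against 6.74 and 7.37 (chr1:143738957-143740368), the largest gap. Ppm1f, a protein phosphatase, had folds of 12.2 and 15.4 against 9.81 and 9.99. Psip1, which encodes the chromatin tether LEDGF, had pileups of 96 and 98 against 54 and 52 and folds of 15.1 and 15.7 against 11.8 and 12.6. These 3 regions were higher in both EpCAM-positive libraries in pileup as well as fold. Fam53c, Fam174a and Slc2a4, which encodes the insulin-responsive glucose transporter GLUT4, were the others of the 6. Mki67 also belonged to the 24, with folds of 7.39 and 7.80 against 4.97 and 6.25.

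In the EpCAM-negative direction, Rhpn2 had the largest gap at 29.7 points (chr7:35333218-35334395). Its folds were 8.58 and 10.3 against 14.3 and 17.7, and its pileups 43 and 59 against 57 and 66, where the fractions overlapped. Its called width went the other way, at 1055 and 1105 bp against 613 and 482 bp. Pim1, a kinase gene induced by cytokines through STAT5, had folds of 6.19 and 7.78 against 10.7 and 10.3 and pileups of 61 and 71 against 77 and 68. St3gal1, a sialyltransferase, had folds of 7.33 and 7.69 against 10.3 and 10.8 at pileups of 76, 73, 73 and 67. The pileups of the fractions overlapped at Pim1 and met at 73 at St3gal1, while the backgrounds did not overlap at either gene. Hipk3, a nuclear kinase, had pileups of 35 and 32 against 42 and 39, higher in both EpCAM-negative libraries. Jund and Ptges2, a prostaglandin E synthase, completed the 6 largest gaps, and Jun, Cbfb, Kat6a and Epb41 were among the 45.

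Neighbours were counted around each region. Another region called in all 4 libraries lay within 50 kb of 71.1% (68.2 to 73.8) of wide and 73.1% (71.9 to 74.3) of narrow regions. A region called in the EpCAM-positive pair only lay within that distance of 14.2% and 14.8%, and one called in the EpCAM-negative pair only of 5.12% and 4.14%, with overlapping intervals. Within 20 kb the shares with another shared region were 39.2% and 43.3%. Cic, H4c8 and Slc16a5 had the most shared regions nearby, 9 each, followed by Grk6 and Klf16 with 8. Cic encodes a repressor of the MAPK response and H4c8 a replication-dependent histone, whose region (chr13:23530731-23531732) reached both ends of the gene.

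A start or end of a non-coding gene or pseudogene lay within 1000 bp of the summit in 20.8% (18.3 to 23.4) of wide and 15.0% (14.1 to 16.0) of narrow regions. Most of these were long non-coding RNAs, at 17.3% (15.0 to 19.8) against 12.7% (11.9 to 13.6). A microRNA hairpin lay inside 7 wide regions: Mir8112 at Krcc1, Mir762 at Bcl7c, Mir7238 at Ankrd10, Mir7075 at Terf2, Mir5131 at Ddhd1, Mir484 at Marf1 and Mir8092 at Zfp518a. Genes with wide regions were longer, with a median of 29866 bp against 24191 bp. By chromosome, the share of wide among shared regions at 1 gene end ran from 11.7% on X to 19.8% on 18, and none of 4 on Y was wide. By symbol, shares were taken of the genes with a shared region at 1 gene end, 15.6% of which had a wide one. Of 208 such zinc-finger genes named Zfp, 16 did (7.69%), against 8 of 27 named Usp (29.6%) and 9 of 35 named Eif (25.7%). Among names with at least 20 such genes, Cdc had the highest share, 7 of 21 (33.3%), and Snx the lowest, 0 of 20. These groups were singled out after their values were seen.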

How the data were processed

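ATAC-seq of DN3 thymocytes of wild-type mice gave 2 libraries for each EpCAM fraction, made with Vazyme's TruePrep kit, per the labels' protocols. Tools named in the submitters' processing notes are MACS3, Bowtie2, Trimmomatic, Trim Galore, Picard, SAMtools, deepTools, bedtools and FastQC, with the build mm10 (GRCm38). The sources used here state no versions, roles, duplicate handling, read shift, caller settings or read totals. The deposited lists hold 1 set of narrow peaks per library. Each list gives positions, a display score that was not analysed here, and, as the deposited values, a fold enrichment and the −log10 of the p-value and the q-value of each peak. These values are the authors'. Folds were compared between libraries by rank or median and in choosing a region's summit; the folds printed for a gene are each list's own.

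Peaks were merged with an overlap of 1 bp or more. Pileup and background were solved from fold and −log10 p, taking the fold as a ratio with 1 added to both terms and the p as Poisson, with a tolerance of 0.01; 99.9885% to 99.9959% of peaks were solved. The solver and the merging were tested on simulated data. The rank comparison was run on simulated data without a set limit to pass, and its rate of calls in unchanged regions is not given here. Genes (21883 protein-coding), strand (17491) and promoters came from RefSeq tables without exons. Python 3.11.15, pandas 2.3.3, numpy 2.4.6 and SciPy 1.17.1 were used. Intervals are exact (Clopper-Pearson, 95%), and for medians they rest on order statistics. All 22 gene lists matched the annotation in full. The members, lists and tests were chosen with earlier results of these data known.

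A planned permutation test of called width is not reported, since width chose the regions. The named genes are the 8 widest, the 8 of highest fold percentile, the 6 largest gaps in each direction, all in the DN3 stage and T lineage factor lists, up to 4 by width of each other list, the 5 with most summit clusters, 3 on each side of the width limit and the 5 with most neighbours. Of the 8 of highest fold percentile, 1 is not reported here. Alternatives covered the width, window, merging, list length, −log10 q, ranked measure, gap, summit and neighbour distance, replicate block and leaving out each library.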

Additional observations from a re-analysis of the deposited data

How the results depend on the processing

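The number of wide regions followed the width limit, with 2820 at 800 bp, 39 at 1500 bp and 118 when only the part called in all 4 libraries counted, and 637 to 956 with a library left out, lowest without EpCAM-positive replicate 1. The share at a gene start was 97.0% at 1500 bp and 97.5% to 98.4% with a library left out. Genes of the lists with a wide region numbered 72, with 183 at 800 bp, 2 at 1500 bp and 47 to 69 with a library left out; of the immediate early and stress list it was 14, 26, 1 and 10 to 14.

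By fold, 24 wide regions were higher in EpCAM-positive and 45 in EpCAM-negative. The second count became 16 by −log10 q and 8 by pileup. By log2 pileup with a 1.5-fold difference the counts were 25 and 5 (2.46% and 0.492%, against 3.98% and 6.32% of all shared regions). By called width, which the choice of regions used, they were 70 and 9 (6.89% and 0.886%, against 5.98% and 5.30% of all shared regions). With a gap of 5 points they were 70 and 125 (6.89% and 12.3%, against 10.4% and 11.3%), and with 0 points 153 and 256 (15.1% and 25.2%, against 19.1% and 20.8%). Ranked among the wide regions alone, they were 50 and 47. With a library left out, so that 1 library stood for its fraction, they were 28 to 88 and 78 to 121; without EpCAM-positive replicate 2 they were 77 and 121, without EpCAM-negative replicate 1 they were 88 and 111, and without EpCAM-negative replicate 2 they were 59 and 112. The criterion asks less where 1 library stands for a fraction, and the shares over all shared regions were not counted there. These counts can therefore not be set against the others. The called width difference of 134.5 bp was 90.5 to 164.5 bp with a library left out, lowest without EpCAM-positive replicate 1.

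With the replicate number as a block the counts were 48 and 84 (4.72% and 8.27%, against 9.42% and 9.40% of all shared regions), and the width difference stayed at 134.5 bp. The labels share numbers only, and the same-number deviations correlated at 0.112 over all shared regions and 0.206 over wide ones, from 2 pairs.

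Wide regions with more than 1 summit cluster made up 75.8% at 50 bp and 60.2% at 200 bp. The GC box share was 76.3% at a pileup of 20 to 40, against 68.9% of narrow regions, an alternative chosen after seeing the data. Another shared region lay within 20 kb of 39.2% and within 100 kb of 88.9%, against 43.3% and 87.8% of narrow regions. Of 79 alternative values, 44 stayed within 1.5 times a count, 1 SD or the interval of the value reported. Read totals are unknown, and the higher background of the EpCAM-positive libraries limits what pileup and width can show between fractions.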
